A study of Mus musculus with 5 samples.

Results

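The Reg genes encode small secreted lectins of the gut and pancreas, and 5 of them are described here: Reg1, Reg3a, Reg3b, Reg3g and Reg4. They were chosen by name, and all 5 were found among the 22042 genes of the bulk table and among the 27998 genes of the droplet matrix. The bulk libraries came from Cck-Cre; R26-LSL-tdTomato mice on a C57Bl/6J background, aged 6 to 8 weeks, in which Cre driven by Cck labels cells that express or have expressed the peptide hormone cholecystokinin. From the small intestinal epithelium of each mouse, tdTomato+ cells (CCK+) and tdTomato- cells (CCK-) were sorted and sequenced separately. Mice A, B and F were fasted overnight, and mice C, D and E were fasted and then refed with the liquid diet Ensure, which gave 4 groups of 3 libraries. The droplet library held tdTomato+ cells of 4 pooled Neurog3-Cre; R26-LSL-tdTomato mice aged 6 weeks, in which Cre is driven by Neurog3, a transcription factor of enteroendocrine cell (EEC) progenitors.

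Reg proteins share a C-type lectin fold and are released into the gut lumen. Reg3b and Reg3g are antibacterial lectins that keep bacteria away from the epithelial surface, and their transcription is known to respond to microbial signals through MyD88 and through interleukin-22 and STAT3. Reg1 was first described in regenerating pancreatic islets, Reg3a is a close relative of the antibacterial pair, and Reg4 is a more distant member known from EECs and goblet cells. EXTL3 has been described as a receptor for Reg proteins.

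On GRCm38.p6, Reg1, Reg3a, Reg3b and Reg3g lie in a cluster of 6 Reg genes on chromosome 6, from 78370885 to 78468874, which spans 98.0 kb. Reg3b is at its low end (78370885 to 78373466, plus strand) and Reg3g at its high end (78466269 to 78468874, minus strand), with Reg3d, Reg3a, Reg2 and Reg1 between them. Reg4 lies alone on chromosome 3, from 98222138 to 98236748, on the plus strand, in RefSeq. In GENCODE transcripts, the coding sequences of Reg3b (528 bases) and Reg3g (525 bases) were identical at 76.6% of aligned positions, whereas Reg4 (474 bases) was identical to the other 4 genes at 54.1 to 55.9%. Reads can therefore be told apart for most of the family. The transcripts of Reg3b and Reg3g shared 5 stretches of 31 bases, 0.446% and 0.231% of those in each gene. Reg3a and Reg4 shared none with any other gene, and Reg1 shared 51 (5.70%) with other genes.

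The promoters of Reg3b, Reg3g and Reg4 are shown because Reg3b and Reg3g varied together in the libraries below, whereas Reg4 did not vary with them. Each sequence holds the 250 bases before the start of the gene in RefSeq on GRCm38.p6, read 5′ to 3′ on the strand of the gene, at chr6:78370635-78370884 (plus), chr6:78468875-78469124 (minus) and chr3:98221906-98222155 (plus). For Reg4 it comes from a transcript that starts slightly inside the span given above. Capitals mark matches, on either strand, to the letters of motifs for factors that act in the gut epithelium or below cytokine receptors. These were TTTATG for the CDX factors of the intestine, TTCNNNGAA for STAT factors and CAAAGTCCA for HNF4. The GATA factors were searched with a pair of motifs, AGATAA on the one hand and, as a related form that they also bind, TGATAA on the other.
Reg3b: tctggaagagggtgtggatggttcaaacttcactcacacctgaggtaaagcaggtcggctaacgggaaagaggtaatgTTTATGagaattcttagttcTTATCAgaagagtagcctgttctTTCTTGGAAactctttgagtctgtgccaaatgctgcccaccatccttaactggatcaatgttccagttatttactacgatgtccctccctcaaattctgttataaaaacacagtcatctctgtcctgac
Reg3g: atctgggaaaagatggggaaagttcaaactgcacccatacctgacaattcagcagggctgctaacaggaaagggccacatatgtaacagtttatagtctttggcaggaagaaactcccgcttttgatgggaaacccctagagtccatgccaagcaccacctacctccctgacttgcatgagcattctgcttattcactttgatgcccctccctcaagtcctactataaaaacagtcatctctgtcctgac
Reg4: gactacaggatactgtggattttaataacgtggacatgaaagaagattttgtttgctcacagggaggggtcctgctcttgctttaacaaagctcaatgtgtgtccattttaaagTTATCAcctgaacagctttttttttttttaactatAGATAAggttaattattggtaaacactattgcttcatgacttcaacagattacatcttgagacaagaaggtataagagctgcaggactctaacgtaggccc

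The promoters of Reg3b and Reg3g were identical at 68.9% of aligned positions, against 47.6 to 57.8% for the other pairs of Reg genes, and their last 20 bases before the start, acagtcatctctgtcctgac, were the same. The match to the STAT motif in Reg3b began 129 bases before the start, that to the CDX motif 172 bases and that to the GATA motif 152 bases before it. The Reg3g window held no match to any of these motifs. In Reg4 the 2 GATA matches began 101 and 136 bases before the start. Among 32851 promoters of the same length, 7.02% held the STAT motif, 10.8% the CDX motif, 9.99% AGATAA, 7.94% TGATAA and 0.384% the HNF4 motif. These matches describe letters, and binding was not measured.

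To learn which sorted cells carry each Reg gene, CCK+ libraries were compared with CCK- libraries. The values are normalized counts as deposited, which the authors obtained by dividing Salmon gene counts by DESeq2 factors. They are not scaled by gene length, so that levels are compared between libraries and not between genes. The libraries summed to between 7061155 and 11371114 normalized counts, and the 5 Reg genes held 0.158 to 0.693% of a library. Cck itself was at 14837 to 32592 normalized counts in the CCK+ libraries and at 27.6 to 86.0 in the CCK- libraries. Tests were made with limma on log2(normalized count + 1) over all 22042 genes, with 1 mean per group, and a gene with a p under 0.05 after Benjamini-Hochberg adjustment was called.

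All 5 Reg genes were called, 4 lower and 1 higher in CCK+ cells, against a background of 14.1% of all genes called lower and 19.6% called higher. Reg1, Reg3a, Reg3b and Reg3g were lower in CCK+ than in CCK- cells of every mouse, and Reg4 was higher in CCK+ cells of every mouse. In pooled RNA, fewer cells of a type and less RNA per cell cannot be told apart.

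**Figure D1:**
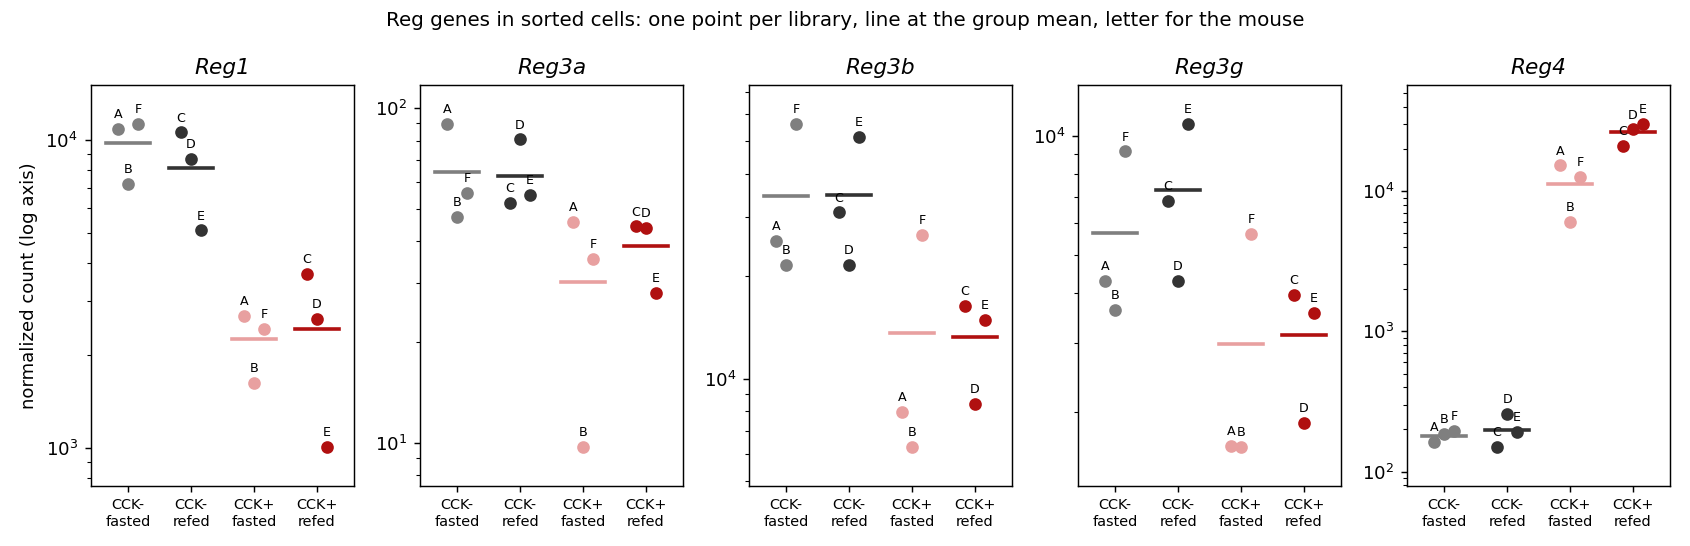
Normalized counts of the 5 Reg genes (y axis, logarithmic) in the 4 groups of sorted cells (x axis), with 1 point per library, the letter of its mouse and a line at the group mean (n = 3). The CCK+ libraries lie below all CCK- libraries for Reg1 and Reg3a and above all of them for Reg4, whereas the ranges overlap for Reg3b and Reg3g.

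Reg1 was the most reduced of the 5. In CCK- cells it had 10895, 7207 and 11292 normalized counts in fasted mice A, B and F and 10586, 8674 and 5088 in refed mice C, D and E. In CCK+ cells of the same mice it had 2690, 1627, 2441, 3669, 2618 and 1008. The highest CCK+ library stood below the lowest CCK- library. The difference was -1.99 on the log2 scale (SE 0.28, adjusted p = 6.75e-05), which is 3.98-fold lower, and the per-mouse differences ran from -2.33 to -1.53.

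Reg3b, an antibacterial lectin, had 25414, 21633 and 56267 normalized counts in the fasted and 30844, 21573 and 51593 in the refed CCK- libraries. In the CCK+ libraries it had 7972, 6289 and 26468 (fasted) and 16322, 8412 and 14920 (refed). Mouse F was the highest of the fasted mice in both kinds of cell, and its CCK+ library stood above 3 CCK- libraries, so that the ranges overlapped. The difference was -1.43 (SE 0.36, adjusted p = 0.00589), or 2.70-fold lower, with per-mouse differences from -1.79 to -0.92.

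Reg3g, its neighbor in function, had 4302, 3629 and 9131 normalized counts in the fasted and 6845, 4295 and 10725 in the refed CCK- libraries. In the CCK+ libraries it had 1641, 1633 and 5633 (fasted) and 3961, 1878 and 3563 (refed). The ranges overlapped here too, since the CCK+ libraries of mice F and C both stood above the CCK- library of mouse B. The difference was -1.14 (SE 0.34, adjusted p = 0.0186), or 2.20-fold lower.

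Reg3a was sparse. It had 89.8, 47.4 and 55.8 normalized counts in the fasted and 52.2, 80.6 and 55.2 in the refed CCK- libraries, and 45.7, 9.71, 35.4, 44.3, 44.0 and 28.1 in the CCK+ libraries of mice A, B, F, C, D and E. The CCK+ libraries stood below the CCK- libraries, by as little as 45.7 against 47.4. The difference was -0.97 (SE 0.34, adjusted p = 0.0413), and mouse B (-2.17) stood apart from the other 5 mice (-0.96 to -0.23).

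The calls of Reg3a and Reg3g rested on the scaling and the spread. With every library rescaled to the same sum, Reg3a was at -0.58 (adjusted p = 0.277) and Reg3g at -0.74 (adjusted p = 0.105). Under quantile normalization Reg3b was at -0.76 (adjusted p = 0.14) and Reg3g at -0.66 (adjusted p = 0.169), in both cases without a change of direction. The median of all genes moved from 0.09 to 0.35 with equal sums and to -0.14 with quantile normalization.

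Reg4 went the other way. In CCK- cells it had 162, 185 and 195 normalized counts in the fasted and 150, 257 and 191 in the refed libraries. In CCK+ cells it had 15260, 6000 and 12594 in fasted mice A, B and F and 21108, 27519 and 30226 in refed mice C, D and E. The lowest CCK+ library was thus far above the highest CCK- library. The difference was 6.46 (SE 0.20, adjusted p = 5.94e-11), or 87.8-fold, and ranged from 5.01 in mouse B to 7.30 in mouse E.

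The same contrast set apart the markers of cell types. All 12 EEC markers were called higher in CCK+ cells (median 6.43), and 9 of 10 enterocyte markers were called lower (median -0.95), against a median of 0.09 over all genes. For this and the lists below, 19.6% of all genes were called higher and 14.1% lower. Fabp1, a fatty acid binding protein of enterocytes, differed by -1.18 and Mttp, which loads lipid onto apolipoprotein B, by -1.01. Summed over the list, enterocyte markers had 431711 to 587803 normalized counts in CCK- and 181488 to 392739 in CCK+ libraries. Of 8 immune markers tested, 6 were called higher and 1 lower, of 8 goblet markers 1 was higher and 2 were lower, and of 12 Paneth markers 1 was lower (Mptx1, -2.43). Of 6 tuft markers 1 was called lower, of 6 crypt and cycling markers 3 were called higher, and of 12 pancreatic acinar markers 2 were called higher. The acinar enzymes Cpa1 and Prss2 had 267 and 92.2 normalized counts in the CCK+ library of mouse A and were listed at 0 in the other CCK+ libraries. Summed over the list, acinar markers had 6081 normalized counts in the CCK+ library of mouse A and 166 to 381 in the other CCK+ libraries. The part of these cell types in the Reg differences was not tested.

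The other family members did not follow the cluster as a whole. Reg2, which lies between Reg3a and Reg1, had 54.7 to 99.3 normalized counts in CCK- and 92.9 to 359 in CCK+ libraries and was called higher in CCK+ cells (0.97, SE 0.23, adjusted p = 0.00403). Its highest value belonged to mouse A, without which the difference was 0.72 (adjusted p = 0.012), and without mouse D it was 0.85 (adjusted p = 0.0573). Reg3d reached at most 10.1 normalized counts and was not called (-1.12, SE 0.65, adjusted p = 0.212). Extl3, the receptor gene, had 68.8 to 130 normalized counts in CCK- and 102 to 178 in CCK+ libraries (0.56, SE 0.19, adjusted p = 0.0356). This call was lost when any mouse but B was left out (0.47 to 0.64, adjusted p at least 0.0631) and under quantile normalization (0.25, adjusted p = 0.335).

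Of 16 other genes of epithelial defense, 7 were called lower and 1 higher in CCK+ cells, and 8 did not pass the test, with a median of -0.63. Among all genes 14.1% were called lower and 19.6% higher. Il18, a cytokine of epithelial cells, had 226 to 404 normalized counts in CCK- and 64.0 to 128 in CCK+ libraries (-1.80, adjusted p = 2.54e-06). Lypd8, which holds flagellated bacteria off the epithelium, had 44940 to 56388 in CCK- and 17251 to 24139 in CCK+ libraries (-1.14, adjusted p = 2.14e-05). Ido1 (-1.44), which degrades tryptophan, the chemokine Ccl25 (-0.90), the sensor Nlrp6 (-0.85), Pigr (-0.68), which carries antibodies into the lumen, and Saa3 (-0.65) were also lower. Fut2, which fucosylates surface glycans, was higher (2.10, adjusted p = 2.49e-05).

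Of 18 genes of interleukin-22, STAT3 and MyD88 signaling, 3 were called higher and 4 lower (median -0.05). With 19.6% of all genes called higher and 14.1% lower, these counts do not set the list apart. The receptors Il6ra (4.66), Tlr2 (3.80) and Tlr5 (3.58) were higher, and the kinase gene Jak2 (-0.98), Il10rb (-0.36), Traf6 (-0.33) and Irak4 (-0.32) were lower. The interleukin-22 receptor gene Il22ra1 differed by -0.39 (adjusted p = 0.143) and Myd88 by -0.05 (adjusted p = 0.89). Of 8 villus tip genes, 1 was called higher and 3 were called lower.

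To ask whether feeding altered the Reg genes, refed mice were compared with fasted mice. Reg4 was the only one of the 5 called. In CCK+ cells all 3 refed libraries (21108 to 30226 normalized counts) stood above all 3 fasted libraries (6000 to 15260), with a difference of 1.31 (SE 0.29, 95% interval 0.69 to 1.93, adjusted p = 0.0285), or 2.48-fold. Over all genes, 1.31% were called higher and 1.23% lower. The call was not stable. It was lost when any library other than that of mouse A in CCK+ cells was left out (0.91 to 1.46, adjusted p 0.0527 to 0.18), when the variance trend was dropped (adjusted p = 0.13) and when the 6 CCK+ libraries were fitted alone (adjusted p = 0.258).

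**Figure D2:**
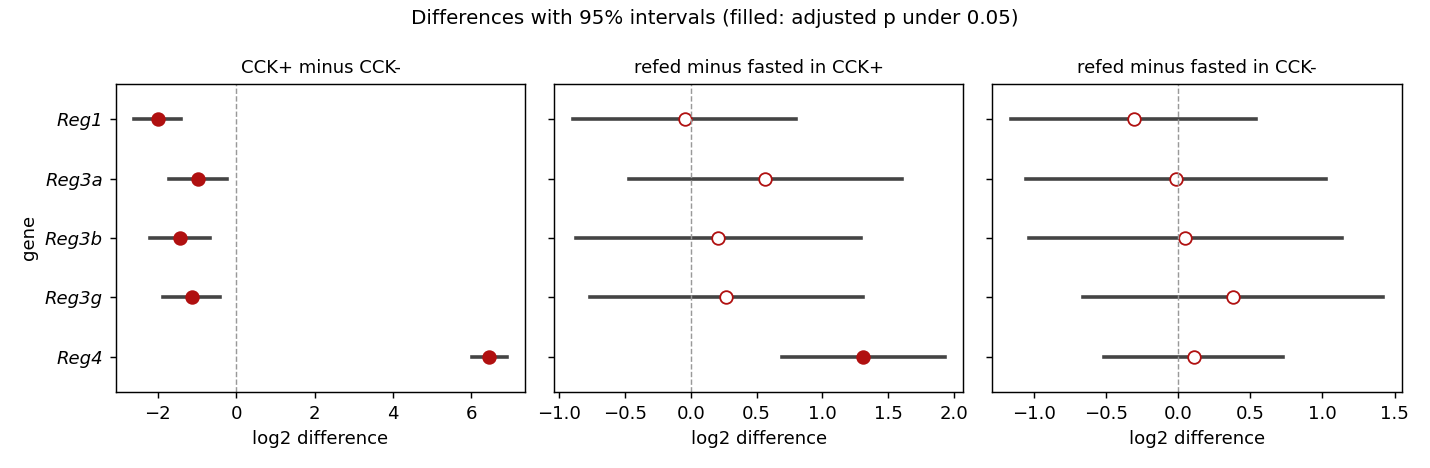
Log2 differences (x axes, on different scales) of the 5 Reg genes (y axis) in 3 comparisons, from limma, with 95% intervals as lines and filled points for an adjusted p under 0.05. All 5 genes are called between CCK+ and CCK- cells, only Reg4 (1.31) between refed and fasted CCK+ cells, and none between refed and fasted CCK- cells.

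The other 4 genes differed by -0.05 (Reg1), 0.57 (Reg3a), 0.21 (Reg3b) and 0.27 (Reg3g) between refed and fasted CCK+ cells. None of these passed the test. The 95% interval for Reg3b ran from -0.87 to 1.29 and that for Reg1 from -0.90 to 0.80. With 3 mice per state, true changes anywhere within these bounds remain compatible with the values. In CCK- cells no Reg gene was called, and 1.23% of all genes were called in either direction. For Reg4 the CCK- difference was 0.11, and the difference between its refeeding effects in CCK+ and CCK- cells was 1.20 (95% interval 0.32 to 2.08, limma adjusted p = 0.707). That test called 0.00454% of all genes, a single gene (Gvin1), and 1378 genes had an unadjusted p under 0.05.

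None of the 12 EEC markers measured beside Reg4 passed the test in CCK+ cells, and their differences ran from -0.46 (Isl1) to 1.11 (Chgb), with a median of 0.23. The granin gene Chgb differed by 1.11 (adjusted p = 0.0814), Chga by 0.91 (adjusted p = 0.142) and Tph1, which makes serotonin from tryptophan, by 0.90 (adjusted p = 0.248). Nearer to 0 were the hormone genes Cck (0.24), Sst (0.04) and Ghrl (0.07) and the transcription factor gene Pax6 (0.05). The summed EEC markers were at 102783 to 234123 normalized counts in fasted and at 257257 to 326588 in refed CCK+ libraries. Their part in the Reg4 difference was not tested. Of the 18 signaling genes, 2 were called lower after refeeding, against 1.23% of all genes. Socs3, a feedback inhibitor that STAT3 induces, went from 444, 292 and 473 to 188, 148 and 223 normalized counts (-1.10, adjusted p = 0.0236), and Stat3 from 1527, 1978 and 1656 to 1270, 903 and 1085 (-0.67, adjusted p = 0.034). Leaving out 1 mouse ended the call of Socs3 for each of the 6 mice (adjusted p 0.0577 to 0.22) and that of Stat3 for 4 of them. None of the 16 defense genes was called in either kind of cell.

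Reg3b and Reg3g varied together from library to library. After subtraction of the group means, Reg3g was the gene most like Reg3b among 9470 genes (r = 0.991 over 12 libraries, and 0.98 without the subtraction), followed by Cul2, Snx14, Gbf1 and Ago2. The ratio of Reg3b to Reg3g normalized counts stayed between 3.85 and 6.16 while Reg3b itself ranged from 6289 to 56267. These correlations describe 12 libraries that share mice in pairs. Mice E and F had the highest Reg3b in CCK- cells. Against Fabp1, Reg3b stood at 0.538 to 2.69 normalized counts per normalized count, and was highest in mice F and E in both kinds of cell.

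**Figure D3:**
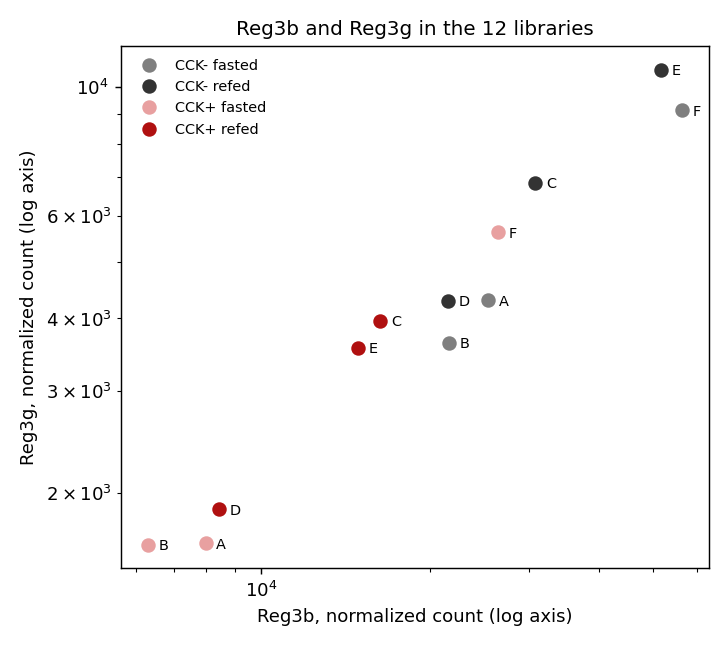
Normalized counts of Reg3b (x axis) and Reg3g (y axis), both logarithmic, in the 12 libraries, colored by group and marked with the mouse. The points lie near a line, with ratios between 3.85 and 6.16, and the CCK+ library of mouse F lies among the CCK- libraries.

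The spread of the Reg genes within groups was wide. The residual SD on the log2 scale was 0.78 for Reg3b, 0.76 for Reg3g, 0.66 for Reg3a, 0.61 for Reg1 and 0.43 for Reg4, against a median of 0.29 over 9471 genes with a mean of at least 50 normalized counts, which put the first 4 above 90.7% of these genes or more. Reg1 did not share the pattern of Reg3b (r = 0.02 after subtraction of group means), and the genes most like it were Rasgrf2, Urod, Slc37a2, Vwa5a and Gstk1 (r = 0.91 to 0.96). Without the subtraction they were Acadl, Gsta4, Wfs1, Pdzd11 and Siae. For Reg3a the nearest were Blnk, Tgds, Arsb, Cyp2c66 and Entpd6.

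Reg4 without the subtraction was most like Chgb (r = 0.9982), Afp, Gpx3, Chga and Neto1, an order set mainly by the gap between CCK+ and CCK- libraries. With the subtraction its nearest genes were Ppfibp1, Uhrf1bp1, Uhrf1, Dbf4 and Chga (r = 0.94 to 0.97). The ratio of Reg4 to Chgb normalized counts lay between 0.0912 and 0.161 in all 12 libraries, CCK- libraries included. The ratio of Reg4 to Tph1 lay between 0.817 and 1.80.

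The droplet library shows which cells held these transcripts. Its matrix lists UMI counts for 475960 non-empty barcodes, and the 9451 with more than 1000 genes and under 10% mitochondrial UMIs were taken as cells (median 5984 UMIs). Each cell went to the first of 5 groups whose limit, in UMIs per 10000, it met. The groups were Tph1 (at least 10, 2760 cells), Cck (at least 500, 978 cells), Zg16, a goblet cell lectin (at least 500, 3975 cells), enterocyte genes (Fabp1, Rbp2, Mttp and Alpi at least 100 in sum, 578 cells) and the rest (1160 cells). A total of 968 cells met more than 1 limit, and no doublet caller was run. The paper kept fewer cells after filters on genes and mitochondrial reads with the same values. A stricter depth cutoff of 3892 UMIs, modeled on how Cell Ranger 2 picks cells, kept 7129 of the 9451. The Tph1 group lost the most, from 2760 to 1053 cells, against 3975 to 3650 for Zg16. With 1 library there is no test, and the 95% intervals (Poisson for UMIs per 10000, exact binomial for shares of cells) cover counting error only. Free RNA was the pooled content of 410487 barcodes with 1 to 100 UMIs. It makes up only a part of the UMIs of a cell, and that part was not measured. A level below that of free RNA therefore does not show that cells lacked the transcript.

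Of the 5 groups, the enterocyte gene group was highest in Fabp2 and Apoa1, enterocyte genes that the limit did not use, but also in tuft markers. Fabp2 was at 74.6 UMIs per 10000 there and at most at 13.1 in the other 4 groups, and Apoa1 at 61.0 against at most 13.1. Summed goblet markers were at 353 UMIs per 10000 in these cells, against 4649 in the Zg16 group, and 851 for Zg16 alone in free RNA.

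Reg1, Reg3a, Reg3b and Reg3g were all highest in the enterocyte gene group, and Reg4 was highest in the Tph1 group. This held under each of the 7 other ways of filtering, grouping or scaling the cells. Enterocyte gene cells made up 6.12% of cells and held 69.6% of the Reg1 UMIs in cells, 61.1% of Reg3a, 57.2% of Reg3b and 36.6% of Reg3g, and Tph1 cells held 84.2% of the Reg4 UMIs.

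**Figure D4:**
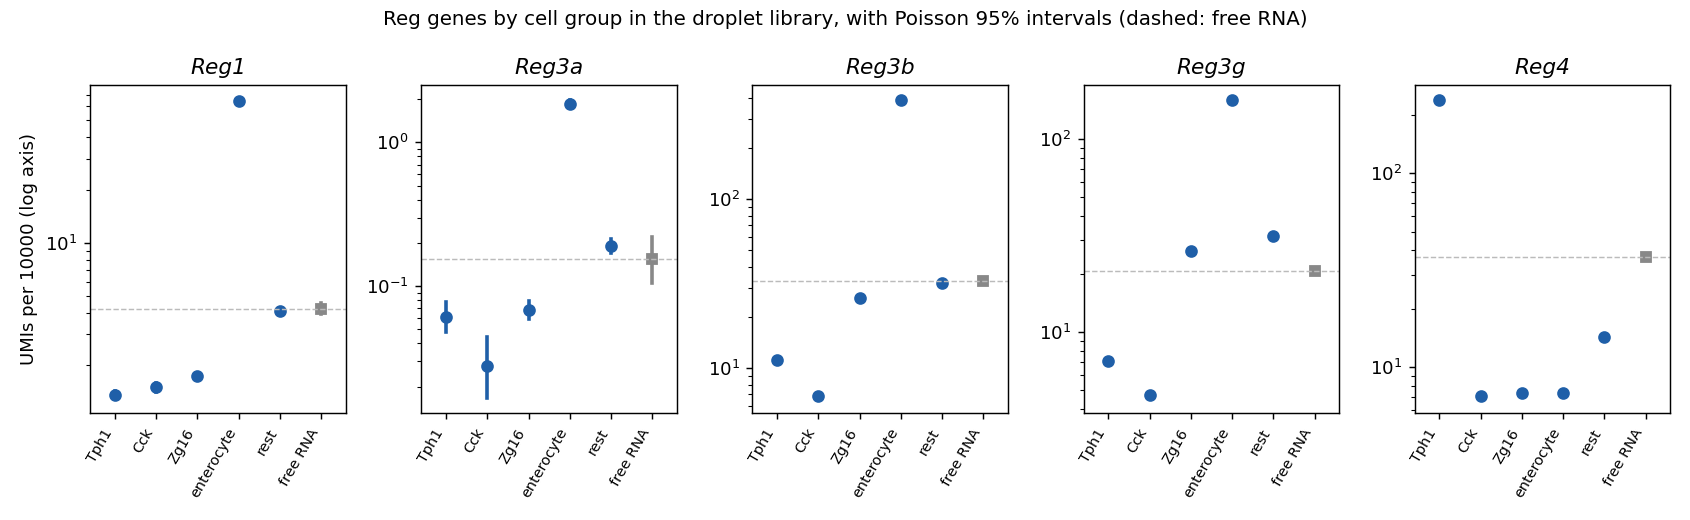
UMIs per 10000 of each Reg gene (y axes, logarithmic) in the 5 cell groups and in free RNA (x axis, square and dashed line), with Poisson 95% intervals. The enterocyte gene group stands above free RNA for the first 4 genes, for example at 386 against 33.0 for Reg3b, and the Tph1 group for Reg4, at 238 against 36.8.

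Reg1 had 64.7 UMIs per 10000 (64.0 to 65.4) in enterocyte gene cells. It had 1.36 in Tph1, 1.50 in Cck and 1.73 in Zg16 cells, all below the 4.22 of free RNA, and 4.10 in the rest. Thinned to 2000 UMIs, 65.2% of enterocyte gene cells held a Reg1 UMI (75.4% before thinning), against 11.5 to 24.2% in the other groups (23.0 to 55.1% before). The median cell of the enterocyte gene group was at 14.8 UMIs per 10000, and the cell at the 90th percentile at 186, so that Reg1 was unevenly spread among these cells.

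Reg3a had 1.85 UMIs per 10000 (1.73 to 1.98) in enterocyte gene cells, against 0.154 in free RNA and 0.0279 to 0.190 in the other groups. After thinning 22.8% of enterocyte gene cells held a UMI (51.6% before), against 0.307 to 2.76% elsewhere (1.56 to 14.0% before). With 1469 UMIs in all cells together, it was the rarest of the 5.

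Reg3b had 386 UMIs per 10000 (384 to 388) in enterocyte gene cells, 26.02 in Zg16, 11.1 in Tph1, 6.82 in Cck cells and 32.2 in the rest, with 33.0 in free RNA. Only the enterocyte gene group thus stood above free RNA, although the rest would too against the 27.5 of barcodes with over 100 to 500 UMIs. Reg3g had 159 UMIs per 10000 (158 to 160) in enterocyte gene cells, 26.2 (26.01 to 26.39) in Zg16 cells and 31.6 (31.3 to 31.8) in the rest, all above the 20.7 of free RNA, and 7.08 and 4.69 in Tph1 and Cck cells.

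Zg16 cells held nearly as many Reg3g UMIs in all (35.3%) as enterocyte gene cells, and these were concentrated in few cells. The tenth of Zg16 cells with the most Reg3b UMIs (398 cells) held 73.5% of the group's Reg3b UMIs. Ranked by UMIs per 10000 instead, the top 398 cells had Reg3b at 164 against 8.13 in the others, and Reg3g at 155 against 9.51. The same cells had 1858 UMIs of Zg16 per 10000 against 2395, and enterocyte markers at 85.6 against 28.6. At a limit of 50 UMIs of Reg3b per 10000, chosen after the values were seen, 72.3% of enterocyte gene cells (68.5 to 75.9%), 9.86% of Zg16 cells (8.95 to 10.8%), 1.81% of Tph1 and 1.02% of Cck cells were above it. Whether the Zg16 cells above it are single cells was not tested.

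The ratio of Reg3b to Reg3g UMIs differed between cell groups. It was 2.43 in enterocyte gene cells, 1.57 in Tph1 and 1.46 in Cck cells, near the 1.596 of free RNA, and 0.993 in Zg16 cells. Within the rest it was 0.930 in 150 cells with Mki67 and Top2a and 0.367 in 212 cells with at least 100 UMIs of Lyz1, a Paneth cell lysozyme, per 10000. In these Lyz1 cells Reg3g was at 18.3 UMIs per 10000 (17.9 to 18.6) and Reg3b at 6.70 (6.48 to 6.92), both below free RNA, whose own ratio was higher. For Reg3g this depended on the barcodes, since those with over 100 to 500 UMIs had 17.2 (16.9 to 17.5), below the Lyz1 cells. The highest levels in the rest were in the 505 cells that met no further limit, with 65.1 UMIs per 10000 of Reg3b and 52.3 of Reg3g.

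Cell by cell, Reg3b and Reg3g went together most closely in enterocyte gene cells. The correlation of their log2 levels was 0.94 over the 578 enterocyte gene cells, 0.81 over the rest and 0.73 over Zg16 cells. Over Cck and Tph1 cells it was 0.4 and 0.37. These values describe cells from 1 library that share free RNA. The median Tph1 cell had 4.08 UMIs of Reg3b and 2.83 of Reg3g per 10000, so that few UMIs entered the correlation there. Reg1 and Reg3b reached 0.56 in enterocyte gene cells, and Reg3b and Reg4 -0.13. After thinning, 81.5% of enterocyte gene cells held UMIs of both Reg3b and Reg3g, against 76.1% for the product of the 2 shares.

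The enterocyte gene cells were also put in order by the summed UMIs per 10000 of 8 villus tip genes and divided into 193, 193 and 192 cells. Where the cells lay on the villus was not measured. Reg3b went from 189 to 408 and 520 UMIs per 10000, Reg3g from 99.1 to 174 and 191, Reg3a from 0.829 to 1.91 and 2.61, and Reg1 from 25.9 to 80.8 and 78.4, while Reg4 went from 9.82 to 7.70 and 5.04. The lowest cells were also the shallowest, at a median of 5431 UMIs against 9344 and 8922. Much of the order came from Apoa4, an apolipoprotein gene. Without it, Reg3b was at 337, 419 and 395 UMIs per 10000, Reg3g at 146, 177 and 151 and Reg3a at 1.79, 2.09 and 1.68, and only Reg1 was in ascending order, at 54.5, 65.4 and 72.8.

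The defense genes called lower in CCK+ cells were not all placed alike in the droplet data. Il18 was at 2.88 UMIs per 10000 in enterocyte gene cells and at most 0.228 in the other groups, Ccl25 at 7.60 against at most 1.68, Nlrp6 at 1.50 against at most 0.674 and Pigr at 24.5 against at most 7.71. Lypd8 was highest in Zg16 cells (78.0), ahead of enterocyte gene cells (38.5) and free RNA (31.2). Reg2 and Reg3d were nearly absent, and Extl3 was at 0.0279 to 0.0914 UMIs per 10000 in the 5 groups, against 0.0448 in free RNA.

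Reg4 had 238 UMIs per 10000 (237 to 239) in Tph1 cells, cells with the enzyme of serotonin synthesis. In Cck, Zg16 and enterocyte gene cells it had 7.11, 7.40 and 7.35, below the 36.8 of free RNA, and in the rest 14.3. These low levels depended on how cells were taken. With under 5% mitochondrial UMIs the enterocyte gene group, then of 80 cells, was at 11.9. Applying the limits in the opposite order moves Tph1 cells that meet another limit out of the Tph1 group. The Cck, Zg16 and enterocyte gene groups were then at 21.3, 19.0 and 16.4, still below free RNA. The share of cells with a Reg4 UMI was 85.5% in thinned Tph1 cells (93.3% before, median depth 3366 UMIs) and 48.3 to 56.1% in the other groups (88.5 to 94.1% before, median depth 6253 to 10373 UMIs), so that a single UMI did not mark a Reg4 cell. Within the rest, the thinned share was 84.9% in the 212 Lyz1 cells, where Reg4 was at 11.4 UMIs per 10000. The 32 cells of the rest set apart by tuft genes were at 48.7 (45.7 to 51.9), above free RNA. At 50 UMIs per 10000 and above, the share was 56.3% (54.4 to 58.1%) of Tph1 cells. It was 1.43% of Cck, 2.24% of Zg16, 3.29% of enterocyte gene and 6.47% of rest cells. The median Tph1 cell was at 93.1 UMIs per 10000 and the cell at the 90th percentile at 820. In the 1053 Tph1 cells above the depth cutoff of 3892 UMIs, Reg4 was at 188 UMIs per 10000.

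Within the Tph1 cells, which include enterochromaffin cells, the EECs that make serotonin, Reg4 varied with other genes. The splits that follow count all 2760 Tph1 cells, of which 1053 were above the depth cutoff of 3892 UMIs. They were not repeated in the deeper cells alone. The 1020 cells with at least 5 UMIs of Afp per 10000 had 558 UMIs of Reg4 per 10000 (555 to 560), against 59.3 in the other 1740. Cells with at least 10 UMIs of Tac1, the gene of substance P, had 476 against 204. Where secretin (Sct) was at 500 or more, Reg4 was lower, at 65.4 against 341. The 268 Tph1 cells that also passed the Cck limit had 64.1 UMIs of Reg4 per 10000 (62.9 to 65.3) against 270. Their level was still above free RNA and above the 7.11 of the Cck group, whose cells were under the Tph1 limit. Those that also passed the Zg16 limit had 147 against 265.

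**Figure D5:**
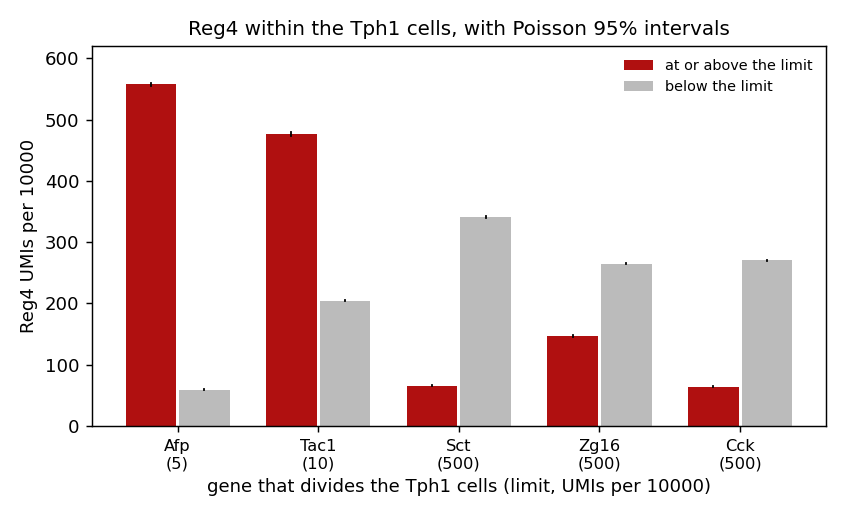
Reg4 UMIs per 10000 (y axis) in Tph1 cells at or above and below a limit on another gene (x axis, limit in UMIs per 10000), with Poisson 95% intervals. Reg4 is higher with Afp (558 against 59.3) and Tac1 (476 against 204) and lower with Sct, Zg16 and Cck.

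Reg4 thus had its highest values in CCK+ libraries of the bulk data and in Tph1 cells of the droplet data. The droplet Cck group, whose cells were under the Tph1 limit, lay below free RNA. Sorted CCK+ libraries contained Tph1 as well, at a difference of 6.18 from CCK- libraries (adjusted p = 8.38e-10). The bulk and droplet mice carried different Cre drivers, and their values are on different scales.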

How the data were processed

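Bulk libraries of CCK+ and CCK- fractions from 6 mice and 1 droplet library were used. The signal values of the bulk table are gene counts that the authors obtained with Trim Galore 0.6.7, Salmon 1.6.0 (GRCm39 transcriptome) and tximeta and divided by DESeq2 factors; genes with at most 1 count were removed, and the values are not whole, so no count test was run and depth in reads is unknown. The droplet counts are UMIs per gene and barcode from Cell Ranger 2.0.1 (mm10), as deposited without normalization. Public titles name CCK+ cells for all bulk groups; the cell-type labels were used.

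Bulk values were tested with limma 3.58.1 in R 4.3.3 after adding 1 and taking log2; the fit had 4 group means, a variance trend on the mean, 8 residual degrees of freedom and Benjamini-Hochberg adjustment over 22042 genes. Each mouse gave a CCK+ and a CCK- library, and libraries of the same mouse deviated together from their group means (correlations 0.0773 to 0.124, against -0.0826 to -0.0184 for other pairs). The script was tested on simulated data. Droplet values were computed in Python 3.11.15 (numpy 2.4.6, scipy 1.17.1, seed 1). Thinning to 2000 UMIs left out 58 shallower cells. Genes were named as follows: the 5 members always, every called member of the family, receptor and defense lists, up to 3 genes with the smallest adjusted p of each other list, and the 5 genes most correlated with a member; other names were added after their values were seen. The members and lists were chosen with earlier results of these data known. Alternatives comprised pseudocounts, filters, scalings, mouse as a block, left-out libraries and mice, cell filters and group orders; those on Reg2, Extl3, Il18, Lypd8, Socs3 and Stat3 were chosen after seeing the data. Promoters and positions came from RefSeq and transcripts from GENCODE, both on GRCm38; protein sequences were not used here.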

Additional observations from a re-analysis of the deposited data

Results flagged for a closer look

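The per-mouse log2 difference of Reg3a between CCK+ and CCK- cells had 1 mouse far from the others. Mouse B stood at -2.17 and the other 5 mice at -0.96 to -0.23, which gave a gap of 0.6254 of the whole range. Its CCK+ library held 9.71 normalized counts of Reg3a. Chance flags about 1 in 20 groups in this way, and 5 genes were examined.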

How the results depend on the processing

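No result changed direction under any alternative among those with a call. Of the 5 calls between CCK+ and CCK- cells, 3 were left with equal sums (lost: Reg3a at -0.58 and Reg3g at -0.74), 3 with quantile normalization (Reg3b at -0.76 and Reg3g at -0.66, with Reg3a at -1.59), and 3 without the variance trend (Reg3a at -0.97 and Reg3g at -1.14). In the fasted libraries alone 2 were left (Reg3a -1.26, Reg3b -1.51, Reg3g -1.08, adjusted p 0.264 to 0.376), and in the refed libraries alone 1 (Reg1 -1.86, Reg3a -0.68, Reg3b -1.36, Reg3g -1.19, adjusted p 0.0729 to 0.148), with fewer samples in each fit. With 1 library or mouse left out, 2 to 5 calls were left. The calls lost with a mouse left out were those of Reg3a without A, C, D, E or F (-1.04, -1.08, -0.92, -0.90 and -1.12), Reg3b without A, D or E (-1.40, -1.43 and -1.33, adjusted p 0.0526 to 0.0679) and Reg3g without A to E (-1.06, -1.12, -1.24, -1.13 and -1.04). Over all libraries and mice left out, Reg3a ranged from -1.18 to -0.64, Reg3b from -1.75 to -1.22 and Reg3g from -1.43 to -0.93, whereas Reg1 (-2.19 to -1.72) and Reg4 (6.28 to 6.67) kept their calls. Reg3a kept its call only without mouse B or the CCK+ libraries of mice A and F. The call of Reg4 after refeeding (1 call) was lost without the trend (0 calls, 1.31) and with only the 6 CCK+ libraries (0 calls, 1.31), and ranged from 0.91 to 1.58 with 1 library or mouse left out (0 to 1 calls), at 0.91, 1.46, 1.27, 1.20 and 1.44 without mice B to F in turn. Apart from the fits with fewer samples, the cause was not tested. With mouse as a replicate block, 5 calls between CCK+ and CCK- cells and 1 after refeeding were left (Reg3a adjusted p = 0.0162, Reg4 after refeeding 1.31, adjusted p = 0.0279), and no call of a Reg gene changed. Over all genes, refeeding called 561 in CCK+ cells, 850 with quantile normalization, 119 without the trend, 0 with the 6 CCK+ libraries alone and 49 to 876 with a library or mouse left out. In CCK- cells the counts were 272, 165, 66, 63 (those 6 libraries alone) and 44 to 268 with 1 left out. The interaction called 1 gene and 0 to 8 under the alternatives, and CCK+ against CCK- 7431 genes and 2169 in the fasted libraries alone. In the droplet data the number of Reg genes lower in the top than in the lowest villus cells moved from 1 to 2 without Apoa4. Reg4 ranged from 188 to 317 UMIs per 10000 in Tph1 cells and from 6.80 to 21.3 in the Cck, Zg16 and enterocyte gene groups, and Reg3b in enterocyte gene cells from 311 to 412. The bulk depth is unknown, and 3 mice per state and 1 droplet library limit what could be detected.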
